A study of Mus musculus with 9 samples.

Results

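CD133+Nestin+ cells from the lining of the third ventricle of mice, called the third ventricular zone, were set against the mid-point between cells sorted for CD133 and cells sorted for Nestin, to ask which genes left the mean of the 2 single-marker groups on the log2 scale. That mean is a geometric one. A physical mix of equal parts would give the mean of the linear values, which was run as an alternative. All 9 libraries of the series entered the comparison, 3 per group, and no sample was left unassigned. The mice carried a Nestin-CFPnuc reporter, in which the Nestin promoter drives cyan fluorescent protein, on a C57/BL6 background. They received no treatment, were harvested on postnatal day 1 and are labelled with no other allele. Cells were separated by fluorescence-activated sorting on CD133 and on the reporter, so Nestin+ here means reporter fluorescence rather than staining for the protein. The labels of a single-marker group do not say whether its cells were negative for the other marker. Titles give each library a sort number from 1 to 3, shared by 1 library of each group, and the same number stands in the labels as the passage. They do not say whether the sorts came from separate animals. With the sort as a block, shifts shared by the libraries of a sort are removed. The p-values therefore measure how the group differences vary between these sorts, which may be technical.

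This zone holds multiciliated ependymal cells, tanycytes and radial glia-like progenitors. CD133, encoded by Prom1, is a membrane protein of apical protrusions and cilia, and is found on neural stem cells, ependymal cells and some other cell types, vessels among them. Nestin, encoded by Nes, is an intermediate filament protein of neural progenitors. Patterning genes such as Wnt8b, Dbx1 and Msx1 mark restricted stretches of the embryonic ventricular wall, so that their level in a sort can differ with the position of the cells as well as with their state.

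Both markers of the sort were high in the double-marker cells. Prom1 read 146, 182 and 179 CPM, read counts scaled to a common library total, in CD133+, 58.1, 39.3 and 55.8 in Nestin+ and 142, 116 and 181 in CD133+Nestin+, each in the order of sorts 1 to 3. Nes read 39.5, 56.9 and 57.3 CPM in CD133+, 195, 157 and 166 in Nestin+ and 210, 172 and 212 in CD133+Nestin+. Each marker thus stood near the level of the sort that selected it, and since the gates used these 2 markers they are given as a description. The 16 measured genes of the neural stem and radial glia list summed to 2751 to 7910 CPM in CD133+, 10183 to 17824 in Nestin+ and 5545 to 11473 in CD133+Nestin+.

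At the smallest common step, taken as 1 read, the libraries hold about 29100000 to 35000000 reads, and 3 reads, the floor used here for a gene seen in no read, equal 0.0856 to 0.103 CPM. This floor covers counting error only. CD133+Nestin+ replicate 2 stood apart, with a mean correlation of 0.842 with the other libraries against 0.882 to 0.924 for the rest. Its listed genes took 65.9% of the CPM scale, against 70.4% to 87.6% in the other libraries. Counts of called genes, over all genes and by list, were therefore also computed without it, while counts by symbol, motif, place and overlap were not.

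Differences are on the log2(CPM + 1) scale, in which the mid-point is the mean of the CD133+ and Nestin+ group means, so a fold understates the change of a gene near 1 CPM. Of 16143 genes tested, 227 differed from the mid-point with the sort as a block (limma, Benjamini-Hochberg adjusted p under 0.05), 1.41% of those tested. Of these, 136 lay above it (0.842%) and 91 below it (0.564%), and 2624 genes had an unadjusted p under 0.05. The 136 include the sort marker Nes (1.07, limma, adjusted p = 0.0306), for whose reporter the double-marker cells were gated. Over all tested genes the median difference was -0.04. Without the block 20 genes were called above and 11 below, all 31 of them among the 227. With the mid-point on the linear scale, and with 1 log2 difference per sort, none was called (limma), with 781 and 885 genes at an unadjusted p under 0.05. The calls rested on few samples. Without CD133+ replicate 3, and likewise without CD133+Nestin+ replicate 3, limma called no gene, with 1923 and 2306 genes at an unadjusted p under 0.05 and smallest adjusted p of 0.0659 and 0.0915. Without Nestin+ replicate 1 it called 4 above and 0 below, and without Nestin+ replicate 2 it called 3 and 1. Without CD133+Nestin+ replicate 2 it called 122 above and 64 below. All 227 genes kept their sign in each of the 9 leave-one-out fits, each without 1 library. In these fits a difference was 0.666 to 1.28 times its value in all libraries for the genes above. For those below it was 0.639 to 1.3 times. The genes were called in these same libraries and each had 1 sign in all 3 sorts. Their kept signs therefore describe the calls and support nothing.

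Most of the 227 genes were among those higher in CD133+ than in Nestin+. CD133+ exceeded Nestin+ in 88 of the 136 genes above the mid-point (64.7%) and in 84 of the 91 below it (92.3%), where 13.1% of all tested genes were higher in CD133+ by the same test. Nestin+ exceeded CD133+ in 7 and 0 of them, against 6.06% of all tested genes. To locate each gene, its place was set to 0 at the CD133+ level and 1 at the Nestin+ level wherever these levels differed by at least 1 log2 unit. The 92 genes above the mid-point that had a place lay near the CD133+ level, with a median place of -0.14 and quartiles of -0.28 and 0.0151. The 84 below it lay near the Nestin+ level, with a median of 1.02 and quartiles of 0.919 and 1.14. Over all 2824 tested genes with a place the median was 0.467 and the quartiles 0.203 and 0.76. A gene has to sit away from 0.5 to be called, so these places describe the calls and support nothing. Because the places are set by the same libraries, no test was made of them.

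**Figure D1:**
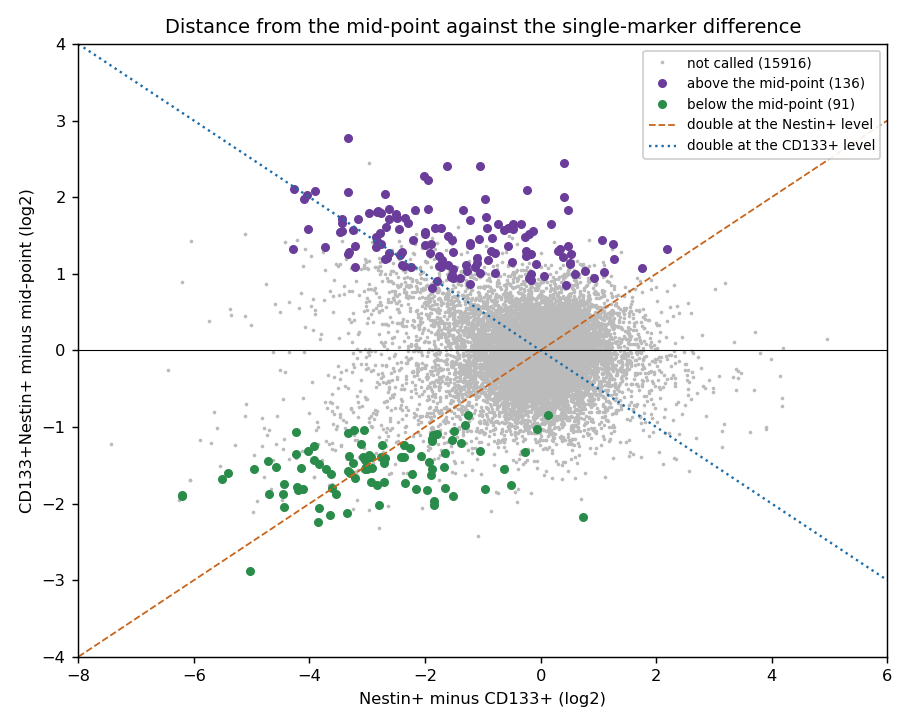
Each point is 1 of the 16143 tested genes: the x axis gives Nestin+ minus CD133+ and the y axis CD133+Nestin+ minus the mid-point, both in log2(CPM + 1), with the 136 genes above and the 91 below the mid-point coloured and the lines marking where CD133+Nestin+ equals the CD133+ or the Nestin+ level. Most coloured genes lie on the left, where CD133+ exceeds Nestin+, along one or the other line, and a smaller set lies high above the centre.

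The first set of genes stood above both single-marker groups. Wnt8b, a WNT ligand, and the homeobox genes Dbx1 and Msx1 were each at a higher level in every CD133+Nestin+ library than in any of the 6 single-marker libraries. In all, 27 genes were higher than CD133+ and higher than Nestin+ in 2 separate tests that share the double-marker libraries (limma, adjusted p under 0.05 in each, 0.167% of genes tested), and 26 of them were also called above the mid-point. Without the block 11 genes passed both tests. All 3 double-marker libraries exceeded all 6 others in 46 of the 136 called genes (33.8%), and in 182 of all tested genes (1.13%).

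Wnt8b (chr19:44493472-44514273, plus strand, GRCm38) read 15.8, 7.43 and 8.84 CPM in CD133+, 9.82, 17.0 and 15.5 in Nestin+ and 45.6, 126 and 57.6 in CD133+Nestin+. The single-marker groups overlapped each other and the double-marker libraries lay above both, with sort 2 the highest. The difference from the mid-point was 2.45 ± 0.35 (log2, SE, n = 3 per group), or 5.47 times the mid-point (limma, adjusted p = 0.024). Dbx1 (chr7:49631499-49636849, minus strand), a homeobox factor of restricted progenitor domains, read 4.88, 4.31 and 4.93 CPM in CD133+, 6.97, 8.83 and 4.41 in Nestin+ and 18.7, 39.9 and 21.3 in CD133+Nestin+. It was 2.00 ± 0.27 above the mid-point (limma, adjusted p = 0.0211), again with no overlap and with sort 2 the highest.

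Msx1 (chr5:37820485-37824583, minus strand), a homeobox gene of the dorsal midline, read 8.62, 16.6 and 11.8 CPM in CD133+, 5.19, 4.20 and 6.69 in Nestin+ and 31.7, 55.5 and 57.5 in CD133+Nestin+. All CD133+ values lay above all Nestin+ values, and all double-marker values above both. Its difference was 2.40 ± 0.24 (limma, adjusted p = 0.0143).

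A further pair of genes showed a similar excess and are not patterning genes. Anxa1 (chr19:20373428-20390944, minus strand), a calcium-dependent phospholipid-binding protein, read 30.9, 64.6 and 53.3 CPM in CD133+, 13.6, 12.8 and 18.4 in Nestin+ and 108, 160 and 178 in CD133+Nestin+. It exceeded CD133+ by 1.6 ± 0.23 (limma, adjusted p = 0.00378) and Nestin+ by 3.22 ± 0.23 (adjusted p = 0.000525), and the mid-point by 2.41 ± 0.20 (adjusted p = 0.00642). Pcp4l1 (chr1:171173262-171196268, minus strand), a small protein related to Purkinje cell protein 4, read 20.1, 37.8 and 26.6 CPM in CD133+, 5.15, 4.95 and 8.2 in Nestin+ and 49.8, 84.1 and 72.4 in CD133+Nestin+, a difference of 2.28 ± 0.22 (limma, adjusted p = 0.0143). For both genes the 3 groups kept the order Nestin+, CD133+, CD133+Nestin+ with no overlap. The calls of Anxa1, Msx1 and Pcp4l1 held in 7 of the 9 leave-one-out fits and were lost without CD133+ replicate 3 and without CD133+Nestin+ replicate 3, where the highest adjusted p were 0.0915, 0.177 and 0.155. Those of Wnt8b and Dbx1 were kept in 5, and were also lost without Nestin+ replicate 1 and without Nestin+ replicate 2, with a highest adjusted p of 0.177.

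**Figure D2:**
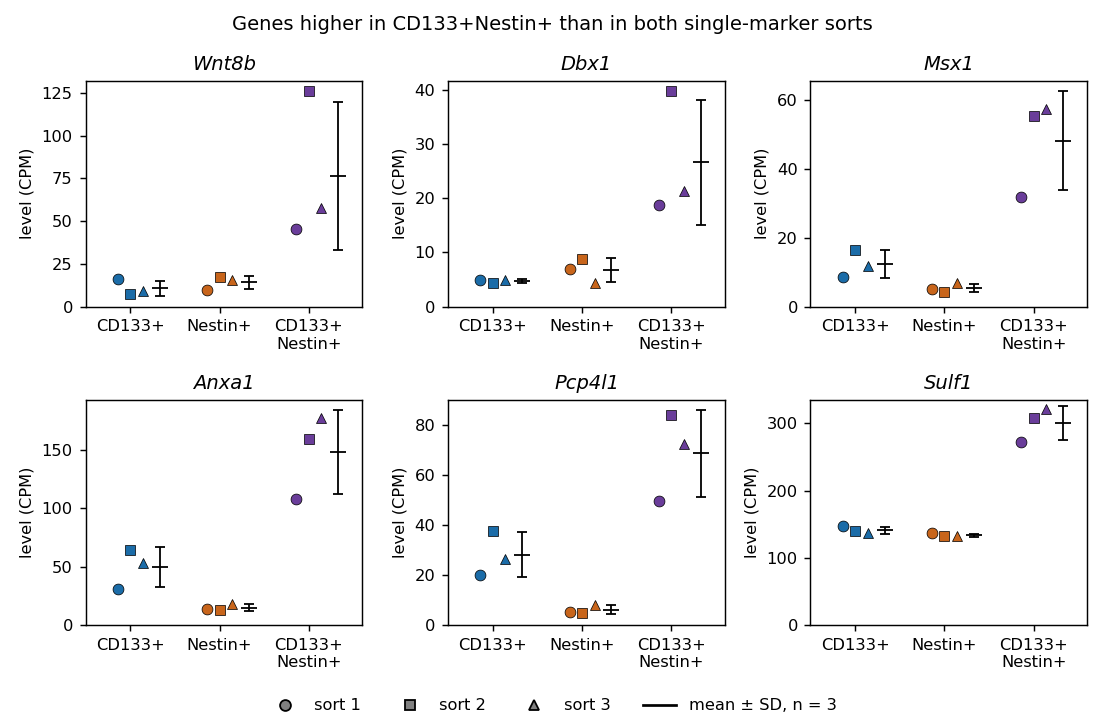
CPM of Wnt8b, Dbx1, Msx1, Anxa1, Pcp4l1 and Sulf1 in each library on linear axes, by group, with a symbol for each sort and the mean ± SD (n = 3) of each group as a line with error bars. In all 6 panels the 3 CD133+Nestin+ points lie above the 6 single-marker points.

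Further genes above both groups included Pcolce2, which enhances procollagen processing, at 10.6, 12.5 and 11.6 CPM in CD133+Nestin+ against 1.86 to 4.59 CPM in the single-marker libraries. Scml4, a Polycomb-related gene, read 11.4, 14.7 and 11.8 CPM against 2.68 to 4.13. Sema3e, a secreted semaphorin guidance cue, read 6.67, 16.8 and 6.94 CPM against 0.709 to 4.70. Nme8, an axonemal protein, read 15.3, 13.5 and 18.2 CPM against 3.05 to 9.70. None of these 4 genes overlapped between double-marker and single-marker libraries. Their calls held in 4, 3, 0 and 2 of the 9 leave-one-out fits.

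Several members with high levels were chosen after their values were seen. Wls, the carrier that brings WNT ligands to the cell surface, read 303, 325 and 273 CPM in CD133+Nestin+, against 129, 153 and 142 in CD133+ and 147, 88.9 and 65.0 in Nestin+. Sulf1, a sulfatase that trims extracellular heparan sulfate, read 272, 309 and 321 CPM, against 147, 140 and 136 in CD133+ and 136, 132 and 132 in Nestin+. Sulf1 thus held nearly the same level in all 6 single-marker libraries and was 1.12 ± 0.14 above the mid-point (limma, adjusted p = 0.0169). Maob, which breaks down monoamines, read 32.0, 34.9 and 42.0 CPM against 5.21 to 18.8, Efnb3, an ephrin, 109, 95.1 and 112 against 25 to 71.2, and Npy, a neuropeptide, 10.8, 9.77 and 8.60 against 1.73 to 3.31. Netrin 1 (Ntn1), a guidance cue, was 1 of the 7 genes above the mid-point that were also higher in Nestin+ than in CD133+. The sort marker Nes was another of the 7, and since the gates used its reporter, its call supports nothing. Ntn1 read 106, 133 and 117 CPM in CD133+Nestin+, 67.1, 67.6 and 73.1 in Nestin+ and 34.5, 25.7 and 26.4 in CD133+, with no overlap between any 2 groups.

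Of the 21 measured regional patterning factors, 5 were above the mid-point (against 0.842% of all tested genes), none below, and 15 differences were positive. The list's median difference was 0.65, against -0.04 over all tested genes. The list was written with earlier results of these data known, so its counts and median describe it and support nothing. Besides Wnt8b, Dbx1 and Msx1 the called members were Barhl2, a homeobox factor of diencephalic neurons (1.65, limma, adjusted p = 0.0474), and Foxa1, a forkhead factor of the ventral midline, at 1.31, 3.88 and 1.68 CPM in CD133+, 0.653, 0.782 and 1.23 in Nestin+ and 4.62, 13.4 and 4.4 in CD133+Nestin+. Lmx1a, Lmx1b and Tal2 had differences of 1.08, 1.17 and 1.43 that did not pass the test. Zic2 had a difference of -1.04 that did not pass it either, so the list did not move as one. Between 0 and 4 members were called when 1 library was left out, with 0 without CD133+ replicate 3 and without CD133+Nestin+ replicate 3, 1 without Nestin+ replicate 1 and without Nestin+ replicate 2, and 3 without CD133+Nestin+ replicate 2. Without the block 3 were called.

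Of 18 measured WNT ligands and targets, 2 were above the mid-point (against 0.842% of all tested genes) and 0 below, and the median difference was -0.28. They were Wnt8b and Rspo2, a secreted amplifier of WNT signalling, which read 8.63, 4.80 and 7.93 CPM in CD133+Nestin+ and 0.802 to 3.85 CPM elsewhere. The commonly used readouts of WNT signalling Axin2 and Lef1 had differences of -0.04 and -0.41 and Notum one of -0.50, none of which passed the test. Among the other ligands, Wnt4, Wnt5a, Wnt5b, Wnt7a and Wnt7b had differences of -0.35 to 0.72, and the targets Tcf7 and Nkd1 ones of -1.09 and -0.90, which did not pass it either. With 1 library left out, 0 to 2 of the WNT list were called, with 0 without CD133+ replicate 3, Nestin+ replicates 1 and 2 or CD133+Nestin+ replicate 3.

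The second set, genes of motile cilia, lay near the CD133+ level. Of 20 measured genes of the ependymal and motile cilia list, all higher in CD133+ than in Nestin+, 5 were above the mid-point and 0 below, and 19 differences were positive. Over all tested genes 0.842% were above, and 88 of the 2116 higher in CD133+ were. The list's median difference was 0.80 and its median place 0.0765. This list, too, was written with earlier results of these data known. The list summed to 2401 to 4872 CPM in CD133+, 611 to 704 in Nestin+ and 2384 to 2704 in CD133+Nestin+. In bulk samples fewer cells of a type and less RNA per cell cannot be told apart.

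Tmem212 (chr3:27866066-27896368, minus strand), a membrane protein of ciliated cells, read 112, 253 and 116 CPM in CD133+, 12.0, 12.9 and 17.0 in Nestin+ and 176, 208 and 204 in CD133+Nestin+. The double-marker values fell within the range of CD133+ and far above Nestin+, which gave 2.06 ± 0.23 above the mid-point (limma, adjusted p = 0.0169) and 0.40 ± 0.27 above CD133+ (adjusted p = 0.433). Hydin (chr8:110266977-110610253, plus strand), a protein of the central pair of the axoneme, read 37.0, 99.4 and 42.2 CPM in CD133+, 7.15, 10.3 and 3.70 in Nestin+ and 35, 97.5 and 38.1 in CD133+Nestin+. Within each sort the CD133+ and the CD133+Nestin+ libraries nearly coincided, and both were highest in sort 2. Its difference was 1.35 ± 0.22 (limma, adjusted p = 0.027), and without the sort as a block the adjusted p was 0.324, against 0.0358 for Tmem212. Dnah5, a heavy chain of the outer dynein arm, followed the same order at 21.6, 58.8 and 25.6 CPM in CD133+, 5.02, 7.46 and 3.76 in Nestin+ and 28.0, 55.0 and 25.3 in CD133+Nestin+ (1.28 ± 0.21, limma, adjusted p = 0.0265, and 0.252 without the block). Dnah9, another outer-arm chain, and Rsph4a, of the radial spoke head, were 1.11 and 1.28 above the mid-point.

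Foxj1, the forkhead factor that drives motile ciliogenesis, had a difference of 0.79 and a place of 0.225, and Mcidas, which acts upstream of it, 0.51 and 0.387. Ccno, needed for the amplification of centrioles, was the list's negative value at -0.25, with a place of 0.556. Gmnc, which acts upstream of Mcidas, had a difference of 0.53 and a place of 0.0318. None of the 4 passed the test. The places of regulators and structural genes overlapped, with Tekt4 and Rsph9 at 0.373 and 0.328 and Tmem212, Hydin and Dnah5 at -0.12, 0.0288 and -0.03. Among genes grouped by symbol after the values were seen, 6 of 30 measured Cfap genes, 6 of 15 Dnah genes and 3 of 7 Rsph genes were above the mid-point and none below. Of the 30, 15 and 7 measured genes, 26, 11 and 7 were higher in CD133+ than in Nestin+. Over all tested genes 0.842% were above, and 88 of the 2116 higher in CD133+ were.

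Further genes outside this list had a similar shape. Cdhr3, a cadherin-related protein of ciliated cells, had the largest difference of all named genes, at 8.48, 44.5 and 15.4 CPM in CD133+, 1.06, 1.04 and 0.617 in Nestin+ and 19.4, 71.9 and 46.5 in CD133+Nestin+ (2.78 ± 0.35, limma, adjusted p = 0.0169, and 0.0635 without the block). Tctex1d4, a dynein light chain relative, read 40.7, 100 and 48.1 CPM, 2.63, 2.5 and 2.67 CPM and 49.5, 57.4 and 70.7 CPM in the same group order. Htr5b, a serotonin receptor, read 42.5, 90.7 and 41.4, then 1.34, 3.19 and 4.22, then 48.5, 57.6 and 76.4 CPM. Car9, a membrane carbonic anhydrase and the only member of the hypoxia and glycolysis list to be called (1 of 20, against 0.842% of all tested genes, list median 0.01), read 11.5, 32.7 and 13.0, then 1.13, 1.76 and 2.19, then 19.4, 32.7 and 19.2 CPM. In all 4 the CD133+ and CD133+Nestin+ ranges overlapped and Nestin+ lay below both. Calb1, the calcium-binding protein calbindin, and Frmpd2, a scaffold protein, were 2.22 and 2.04 above the mid-point and held in 2 and 1 of the 9 leave-one-out fits. Both were also higher than CD133+ within each sort, by 1.25 and 0.69 (limma, adjusted p = 0.151 and 0.376).

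The size of this set depends on the scale of the mid-point. On a linear scale, where the mean of a high and a low value lies near the high one, the list's median difference was 0.45. For the 88 called genes that were higher in CD133+ it was 0.96, against 1.43 on the log2 scale, and for all 136 it was 1.09. The linear fit has 1 difference per sort and 2 residual degrees of freedom, and its smallest adjusted p over all genes was 0.501 (limma). Between 0 and 12 list members were called when 1 library was left out, with 0 without CD133+ replicate 3, Nestin+ replicates 1 and 2 or CD133+Nestin+ replicate 3, 12 without CD133+ replicate 2 and 5 without CD133+Nestin+ replicate 2. Without the block 1 was called.

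Promoters of 5 called genes are shown, chosen because they hold a run of letters that the comparison did not use. RFX transcription factors bind the X-box, an inverted repeat found near the start of many ciliary genes, and 1 arm of it, GTTGCCA, was searched on both strands in the 250 bases before the RefSeq transcription start (GRCm38.p6). It was present in 12 of the 105 genes above the mid-point with a promoter entry (11.4%), in 10 of 70 of those also higher in CD133+ (14.3%) and in 4 of 16 of the ependymal list (25%). It was present in 1 of 66 genes below the mid-point (1.52%), 0 of 20 genes above both groups and 458 of 10733 tested genes (4.27%). The share among all 2116 genes higher in CD133+ was not computed, so these shares cannot be tied to leaving the mid-point. Rfx2, which encodes such a factor and was chosen after its values were seen, read 66.5, 135 and 80.4 CPM in CD133+, 28.3, 33.9 and 50.8 in Nestin+ and 82.7, 156 and 129 in CD133+Nestin+, and lay just inside the threshold. A match is a description of these letters and not a binding site. The 100 bases before the start are given, 5′ to 3′ on the gene's strand, for the 5 called genes of largest difference with a match in that stretch, with the match or its reverse complement in capitals. They are Cdhr3 (chr12:33092876-33092975, minus strand), Sntn (chr14:13670776-13670875, plus), Cfap58 (chr19:47937612-47937711, plus), Hydin (chr8:110266877-110266976, plus) and Catip (chr1:74362035-74362134, plus).
Cdhr3: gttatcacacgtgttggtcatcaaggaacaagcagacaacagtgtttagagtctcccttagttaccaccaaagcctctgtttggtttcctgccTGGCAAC
Sntn: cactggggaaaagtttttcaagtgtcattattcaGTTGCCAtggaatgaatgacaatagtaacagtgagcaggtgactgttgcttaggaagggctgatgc
Cfap58: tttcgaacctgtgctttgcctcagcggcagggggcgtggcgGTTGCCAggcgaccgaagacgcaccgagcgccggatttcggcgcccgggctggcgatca
Hydin: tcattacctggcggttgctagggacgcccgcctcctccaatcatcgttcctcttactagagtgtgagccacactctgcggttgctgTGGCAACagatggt
Catip: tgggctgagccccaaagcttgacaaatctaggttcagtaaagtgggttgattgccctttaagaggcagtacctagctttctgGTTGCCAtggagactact
Sntn, a protein of the ciliary tip, was 1.72 above the mid-point and Cfap58, a cilia and flagella associated protein, 1.55.

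The third set, genes of blood, vessel and connective tissue cells, lay mostly nearer the Nestin+ than the CD133+ level. Of 15 measured microglia and macrophage genes, all higher in CD133+ than in Nestin+, 6 were below the mid-point and 0 above, and all 15 differences were negative (median -1.44, median place 0.827). Of 6 endothelial genes 2 were below (median -1.41), and of 9 mural and fibroblast genes 3 were below (median -1.06). Those 3 were Col1a1, Col1a2 and Fn1. Pdgfrb, Rgs5, Vtn and Dcn, at -0.40, -0.80, -1.17 and -0.25, did not pass the test. Acta2, at 0.66, and Cspg4, at -1.10 with a place of 0.043 near the CD133+ level, did not pass it either. Over all tested genes 0.564% were below, and 84 of the 2116 higher in CD133+ were. These lists were also written with earlier results of these data known. None of 5 erythroid genes was called (limma), 4 had an unadjusted p under 0.05 and the median was -1.65. The microglia and macrophage list summed to 1364 to 3547 CPM in CD133+, 85.1 to 178 in Nestin+ and 99.1 to 467 in CD133+Nestin+. For the endothelial list these ranges were 577 to 1115, 33.2 to 43.6 and 61.3 to 88.8 CPM, for the mural and fibroblast list 1112 to 2124, 212 to 293 and 137 to 244, and for the erythroid list 783 to 1537, 24.4 to 344 and 60.6 to 118. The endothelial sums of CD133+Nestin+ lay above those of Nestin+ with no overlap. The part of these cell types in the other differences was not tested.

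Csf1r, the growth factor receptor of microglia and macrophages, read 567, 211 and 249 CPM in CD133+, 18.7, 6.87 and 9.94 in Nestin+ and 59.0, 6.09 and 9.80 in CD133+Nestin+. The double-marker level was above the Nestin+ range in sort 1, within it in sort 3 and just under it in sort 2, and the difference was -1.87 ± 0.29 (limma, adjusted p = 0.0263, and 0.335 without the block). Mrc1 (chr2:14229392-14332057, plus strand), the mannose receptor of border macrophages, read 120, 141 and 114 CPM in CD133+, 1.75, 0.554 and 0.154 in Nestin+ and 4.26, 1.82 and 3.00 in CD133+Nestin+. Every double-marker value of Mrc1 lay above every Nestin+ value, both far below CD133+, and the difference from the mid-point was -1.91 ± 0.28 (limma, adjusted p = 0.0263, and 0.0521 without the block). Against Nestin+ it was 1.20 ± 0.33 (adjusted p = 0.0631). Pf4, a chemokine of the same cells, read 105, 92.0 and 75.6, then 0.206, 0.293 and 0.185, then 3.06, 0.795 and 2.22 CPM, also with every double-marker value above every Nestin+ value. Tmem119, a microglial membrane protein, read 25.3, 11 and 25.3, then 0.962, 0.0327 and 1.17, then 2.08, 0.166 and 0.875 CPM. Cx3cr1 and Fcer1g, a chemokine receptor and an Fc receptor chain, were the other members called, at -1.87 and -1.52.

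Col1a1 (chr11:94936224-94953042, plus strand), a chain of type I collagen, had the lowest difference of the named genes. It read 203, 336 and 480 CPM in CD133+, 5.67, 21.4 and 5.37 in Nestin+ and 6.52, 7.69 and 5.74 in CD133+Nestin+, which gave -2.88 ± 0.34 (limma, adjusted p = 0.0169). Against Nestin+ alone the double-marker libraries differed by -0.37 ± 0.40 (adjusted p = 0.647). Col1a2 and Fn1, encoding the partner chain and fibronectin, were -1.40 and -1.06 from the mid-point. Against Nestin+, Col1a2 differed by -0.21 (limma, adjusted p = 0.704), while Fn1 was higher in CD133+Nestin+ by 1.06 ± 0.23 (adjusted p = 0.0247). Flt1, a VEGF receptor of endothelium, read 48.4, 86.9 and 126 CPM in CD133+, 10.5, 9.13 and 16.0 in Nestin+ and 7.35, 12.8 and 7.08 in CD133+Nestin+ (-1.72 ± 0.28, limma, adjusted p = 0.0303, and 0.0827 without the block). Pecam1, an endothelial adhesion molecule, differed by -1.60 and lay just inside the threshold. Sox7, an endothelial transcription factor, and Mgp, matrix Gla protein, were at -2.02 and -2.05.

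Other called genes with low values in Nestin+ and CD133+Nestin+ were Ms4a6c and Gpr34, of microglia and macrophages (-2.06 and -2.24), and Il4ra, an interleukin receptor chain (-2.02). In CD133+Nestin+ replicate 2 the levels of Gpr34, Sox7 and Slc7a8 were 0.0332 CPM, under the floor of 3 reads. Under it as well were Tmem119, Mgp and Ms4a6c in Nestin+ replicate 2, at 0.0327 CPM. The same held for Ms4a6c in CD133+Nestin+ replicate 3, at 0.0584 CPM. B2m and H2-D1, which form class I antigen-presenting molecules, were the 2 called members of 8 antigen presentation genes, at -1.46 and -1.05. Of these 8 genes 6 had negative and 2 positive differences. H2-D1 and the Ms4a genes have near-identical relatives, so their reads may be split between copies. Col6a1 was the 1 called member of 21 extracellular matrix genes (-1.31, list median -0.71), of which 16 had negative and 5 positive differences. Over all tested genes 0.564% were below the mid-point. With 1 library left out, 0 to 7 of the microglia and macrophage genes, 0 to 1 of the endothelial and 0 to 2 of the mural and fibroblast genes were called. All 3 counts were 0 without CD133+ replicate 3, Nestin+ replicate 1 or CD133+Nestin+ replicate 3, and 7, 1 and 2 without CD133+Nestin+ replicate 2. Without the block they were 1, 0 and 1. On the linear scale the list medians were -2.58, -2.81 and -2.26, further from the mid-point than on the log2 scale. With a pseudocount of 0.1 the genes below the mid-point fell from 91 to 21. The adjusted p (limma) was then 0.164 for Mrc1, 0.122 for Gpr34, 0.137 for Mgp and 0.0754 for Ms4a6c. For Il4ra, Cx3cr1 and Fcer1g it was 0.0776, 0.0659 and 0.0659, and for Fn1 and B2m 0.0671 and 0.0502. The calls of Col1a1, Col1a2, Flt1, Csf1r and H2-D1 were kept, at 0.0241, 0.0479, 0.0479, 0.0463 and 0.0463.

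**Figure D3:**
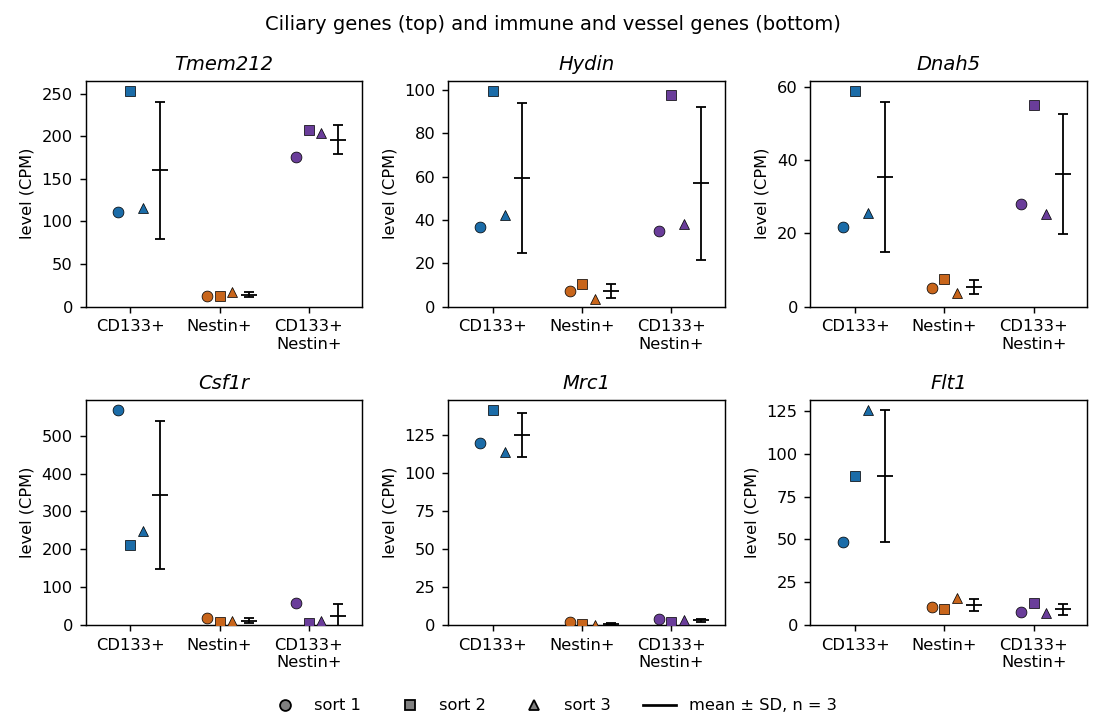
CPM of Tmem212, Hydin, Dnah5, Csf1r, Mrc1 and Flt1 in each library on linear axes, by group, with a symbol for each sort and the mean ± SD (n = 3) of each group as a line with error bars. The CD133+Nestin+ points sit at the CD133+ level for the 3 ciliary genes and near the Nestin+ level for the macrophage and endothelial genes.

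The fourth set lay below both single-marker groups and was small. By the test against each group it held 4 genes (0.0248% of genes tested), Spock2, Slc7a5, Max and Elovl1. All 3 double-marker libraries were below all 6 others in 7 of the 91 genes below the mid-point (7.69%) and in 156 of all tested genes (0.966%). Spock2 (chr10:60106219-60135198, plus strand), an extracellular proteoglycan, read 207, 203 and 252 CPM in CD133+, 63.5, 49.0 and 71.2 in Nestin+ and 48.6, 16.8 and 29.1 in CD133+Nestin+. It differed from the mid-point by -1.96 ± 0.23 (limma, adjusted p = 0.0169) and from Nestin+ by -1.04 ± 0.26 (adjusted p = 0.0492). Slc7a5 (chr8:121881150-121907694, minus strand), a transporter of large neutral amino acids, read 114, 87.1 and 109 CPM, then 44.0, 27.0 and 36.4, then 29.9, 7.79 and 15.2 (-1.90 ± 0.23, limma, adjusted p = 0.0169, and 0.0667 without the block). In both genes sort 2 was the lowest of the double-marker libraries, and the groups did not overlap for Spock2.

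Related transporters lay near the Nestin+ level instead. Slc7a1, of cationic amino acids, read 61.0, 86.2 and 90.9 CPM in CD133+, 8.52, 7.82 and 4.53 in Nestin+ and 9.77, 2.29 and 4.26 in CD133+Nestin+, and Slc7a8, of neutral amino acids, 47.1, 38.1 and 43.4, then 3.44, 1.79 and 2.47, then 6.03, 0.0332 and 1.98. Against Nestin+ they differed by -0.44 and -0.33 (limma, adjusted p = 0.585 and 0.718), and in sort 1 both were above it. Of 11 measured Slc7a genes, grouped after the values were seen, Slc7a1, Slc7a5 and Slc7a8 were below the mid-point and 0 above, with a median of -0.06. Over all tested genes 0.564% were below. Max, the dimerization partner of MYC, read 67.6, 27.5 and 13.8, then 39.8, 26.3 and 13.7, then 15.9, 7.52 and 8.57 CPM, and its groups overlapped across sorts but not within a sort. Elovl1, which elongates fatty acids, read 37.3, 10.6 and 22 CPM in CD133+Nestin+ and 30.8 to 55.5 in the others. Dusp6, an ERK phosphatase and the only called member of 20 FGF and RAS-MAPK genes, was -0.84 from the mid-point. Ptpre, a tyrosine phosphatase, read 12.2, 9.31 and 12.1 in CD133+, 21.9, 27.1 and 11.9 in Nestin+ and 7.81, 0.398 and 2.42 CPM in CD133+Nestin+. Its difference from the mid-point was -2.17 ± 0.44 and lay just inside the threshold (limma, adjusted p = 0.0499). By sort it was -0.98, -3.61 and -1.93, largest in sort 2. Against CD133+ alone Ptpre did not pass the test (adjusted p = 0.0842). The calls of Spock2 and Slc7a5 held in 5 of the 9 leave-one-out fits and were lost without CD133+ replicate 3, Nestin+ replicates 1 and 2 and CD133+Nestin+ replicate 3 (highest adjusted p = 0.177). Those of Max, Elovl1 and Dusp6 were kept in 0, with highest adjusted p of 0.177, 0.245 and 0.25. Without CD133+Nestin+ replicate 2, 3 genes lay below both groups, and without the block 0 did.

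**Figure D4:**
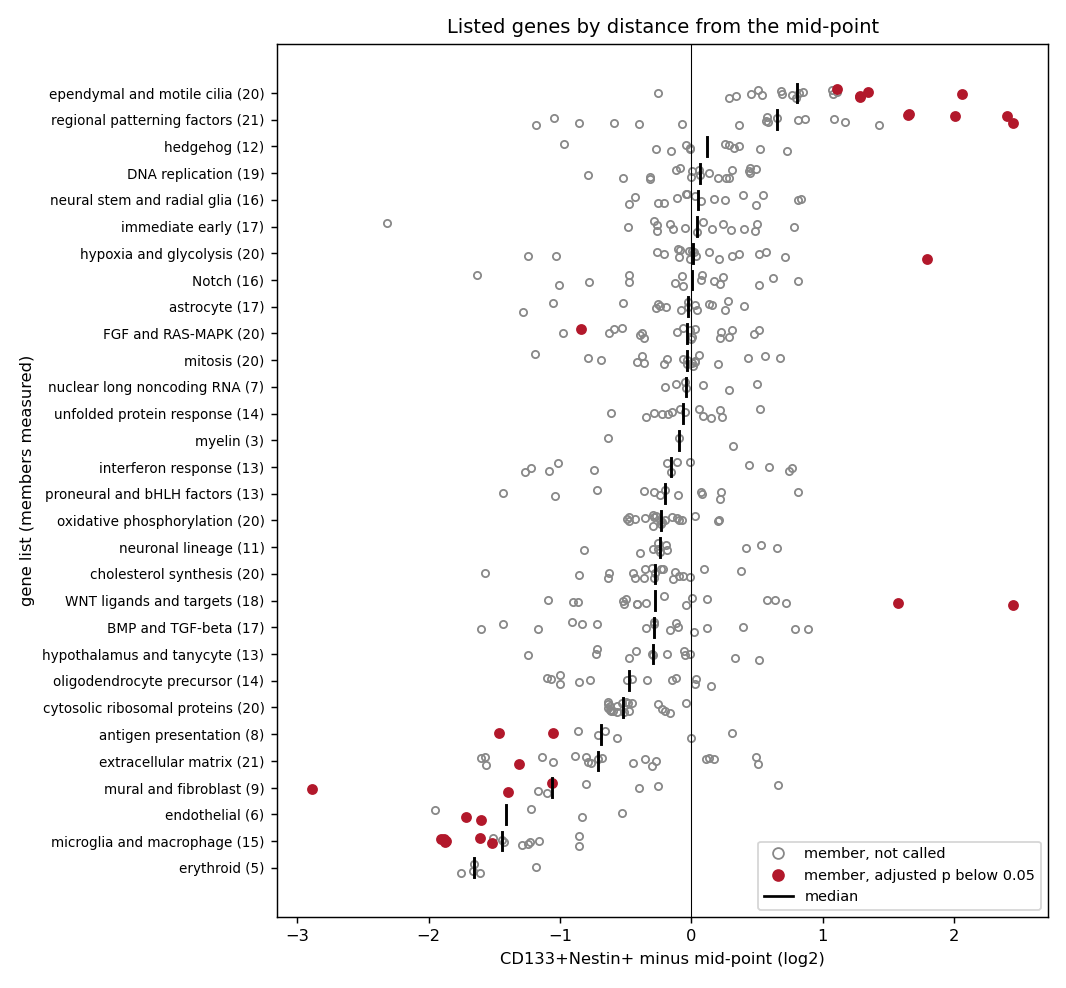
Difference from the mid-point, in log2(CPM + 1), of every measured member of the gene lists (points), with called members coloured and the list medians marked. The ependymal list lies mainly above 0 (median 0.80) and the microglia and macrophage list below it (median -1.44).

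Of the 978 genes higher in Nestin+ than in CD133+, 7 were above the mid-point, the sort marker Nes among them, and 0 below it. Of 14 measured oligodendrocyte precursor genes, 12 were higher in Nestin+ than in CD133+ and none was called against the mid-point (limma, 3 at an unadjusted p under 0.05). Their median difference was -0.47 and their median place 0.285. The list summed to 128 to 277 CPM in CD133+, 1091 to 1711 in Nestin+ and 269 to 754 in CD133+Nestin+. Pdgfra, the growth factor receptor of these precursors, read 17.2, 27.0 and 31.8 CPM in CD133+, 427, 521 and 250 in Nestin+ and 168, 33.4 and 19.7 in CD133+Nestin+. The double-marker level of Pdgfra was high in sort 1 alone, and its difference of -1.0 ± 0.51 did not pass the test (adjusted p = 0.358). Of 11 neuronal lineage genes none was called (limma, 2 at an unadjusted p under 0.05), with a median of -0.24. No gene of the neural stem and radial glia (16 measured), astrocyte (17), hypothalamus and tanycyte (13), proneural (13), Notch (16) or hedgehog (12) list was called, with 3, 4, 3, 3, 2 and 2 members at an unadjusted p under 0.05. None was called either of the BMP and TGF-beta (17), DNA replication (19), immediate early (17), interferon response (13), cholesterol synthesis (20), unfolded protein response (14), nuclear long noncoding RNA (7) and myelin (3) lists, with 8, 1, 1, 6, 5, 1, 0 and 0 such members.

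**Figure D5:**
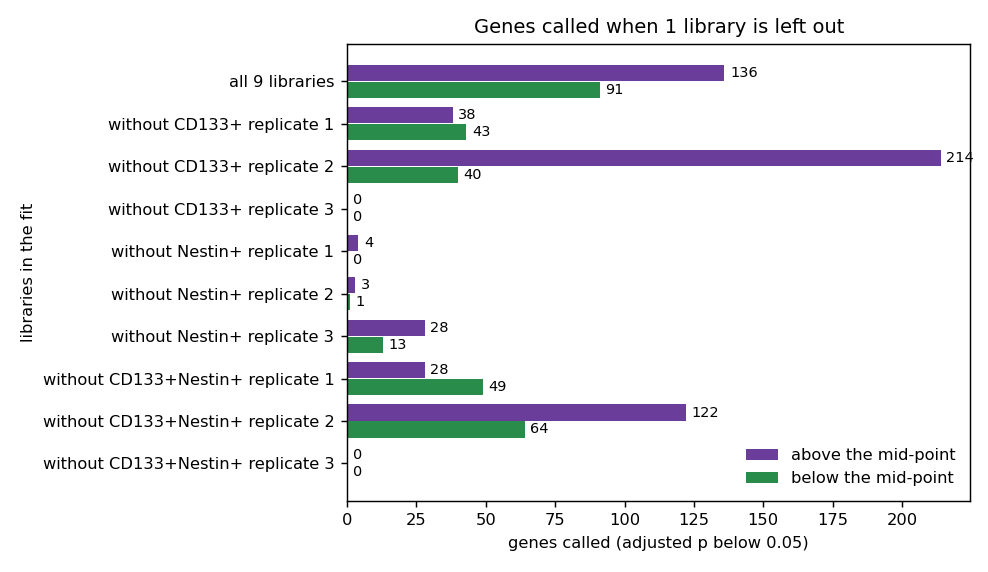
Genes called above and below the mid-point (adjusted p under 0.05) in all libraries and with each of the 9 libraries left out. All libraries gave 136 and 91, and the counts fell to 0 and 0 without CD133+ replicate 3 and without CD133+Nestin+ replicate 3.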

How the data were processed

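RNA was measured in 9 libraries, 3 per sorted group. Of software, bcl2fastq, STAR 2.5.3a, limma and Partek 8.0 stand in the submitters' processing notes, beside the build mm10 and with no roles. Annotation, counting and strand use are not given in the sources used here. Antisense and overlapping genes therefore cannot be told apart. The authors deposited a table of normalized gene values, used here as CPM, a unit inferred from the values, since low values pile up on steps that are constant within a library and are taken as 1 read. Of values under 20 such steps, 43.1% to 55.3% were whole multiples within 0.02 reads, so a count test was left out for want of whole reads. The authors' table of their own comparisons was not used. In the gene table, 24 symbols had been turned into dates.

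Of 18329 genes, 16143 reached 1 CPM in at least 3 libraries. On log2(CPM + 1), limma 3.58.1 (R 4.3.3, trended and robust prior) was fitted to the 3 groups with the sort number as a block, and CD133+Nestin+ minus 0.5 of each single-marker group was tested over all genes with Benjamini-Hochberg adjustment at 0.05. The fit left 4 residual degrees of freedom. The script was tested on simulated data. The block was taken because titles give the number as the sort. Library deviations from their group mean had correlations of 0.204 to 0.73 in the 9 same-numbered pairs, and of -0.527 to 0.314 in 18 other pairs.

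Genes named were the 12 largest differences in each direction, the 10 largest above and below both groups, and up to 4 called genes per list. All but the list genes had to show the same direction in all 3 sorts, 10 CPM or more as the highest group mean and no predicted-gene symbol. Exceptions are stated. Some results are not reported here. The members and the 30 lists were chosen with earlier results of these data known. Gene coordinates are from GENCODE M21 (GRCm38, which is mm10), which held all 228 symbols looked up, and promoter sequences from RefSeq (GRCm38.p6).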

Additional observations from a re-analysis of the deposited data

How the results depend on the processing

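With the mid-point as reported, 136 genes were above it, 91 below it, 27 above both single-marker groups and 4 below both. Without the replicate block these counts were 20, 11, 11 and 0. With a pseudocount of 0.1 they were 85, 21, 17 and 4, so that 80.2% of calls were above, and with no filter on low values 81, 50, 22 and 2. With library weights, which gave CD133+Nestin+ replicate 2 a weight of 0.116 and replicate 3 one of 4.49, they were 881, 577, 107 and 43. With no trend and no robust prior, 0 genes were below both groups. With the mid-point on the linear scale, and with 1 log2 difference per sort, limma called 0 above and 0 below, with 781 and 885 genes at an unadjusted p under 0.05. The last 2 fits have 2 residual degrees of freedom. Leaving out 1 library gave 0 to 214 genes above and 0 to 64 below, with 6 to 31 above both groups and 0 to 16 below both. Leaving out a whole sort gave 0 to 319 above, 0 to 87 below, 0 to 37 above both and 0 to 6 below both. For all of these changes the cause was not tested, beside the fewer samples in each fit. A filter of 5 CPM, median centring and quantile normalization kept all 4 counts within 1.5 times. All 227 genes kept their sign in every alternative in which they were measured, 214 of them under the 5 CPM filter. Among the named genes without the sort markers, all 47 kept their sign. Since the genes were called in these same libraries, the kept signs are given as a description. Depth limits genes under about 0.1 CPM in a library.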

Other observations

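Lists of housekeeping and division genes had no called member but their medians were lowest in sort 2. The 20 mitosis genes had median differences from the mid-point of 0.47, -1.19 and 0.60 in sorts 1, 2 and 3, a median of -0.04 over all sorts and one of 0.47 without that library. In CD133+Nestin+ the cyclin gene Ccnb1 read 101, 7.01 and 70.4 CPM. All 20 cytosolic ribosomal protein genes had negative differences (median -0.52), of which 12 had an unadjusted p under 0.05 and none was called (limma). By sort their medians were -0.12, -1.17 and -0.30, and the median was -0.22 without that library. The 20 oxidative phosphorylation genes moved likewise, from a median of -0.23 to 0.02 without it.

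The erythroid list, whose globin genes are near-identical pairs, had medians of -1.39, -3.09 and -0.53 in the 3 sorts. The oligodendrocyte precursor list had medians of 0.30, -0.66 and -0.49, so that sort 1 lay on the other side of the mid-point from sorts 2 and 3. The microglia and macrophage list had medians of -0.80, -1.27 and -2.02 and the ependymal list of 0.89, 0.48 and 1.15, each with 1 sign in all sorts.

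Further genes above the mid-point were chosen after their values were seen. Myb, a transcription factor of progenitors and of differentiating multiciliated cells, read 44.9, 105 and 48.7 CPM in CD133+, 4.23, 8.27 and 3.91 in Nestin+ and 28.1, 74.5 and 46.7 in CD133+Nestin+, and was 1.26 above the mid-point. Pdyn, the precursor of dynorphins, read 24.6, 26.8 and 18.0, then 11.8, 6.45 and 19.1, then 40.2, 89.3 and 50.1 CPM. Traf1, an adaptor of tumour necrosis factor receptors, read 63.5, 56.3 and 43.8, then 50.4, 41.3 and 44.6, then 98.9, 141 and 118 CPM. For Pdyn and Traf1 no double-marker library overlapped a single-marker one.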
